A study of Canis lupus familiaris with 77 samples.

Results

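The miRNAs described here are cfa-miR-203 and cfa-miR-205, 2 of the 650 miRNAs with at least 1 read in a miR-seq atlas of dog tissues. They were taken by name from the deposited table. The samples were 76 libraries of 16 tissues of untreated male beagle dogs aged 10 months, with 5 samples in 14 tissues, 4 in colon and 2 in sciatic nerve. The solid organs came from dogs flushed with buffered saline. The study drew its tissues from 5 dogs and describes the pooling of sciatic nerve RNA in different ways, so whether the 2 sciatic nerve samples came from separate dogs is not known. Samples are named by tissue and a number that only identifies them, and no label ties samples to a dog. Samples of different tissues therefore share animals that cannot be matched, the tests below take libraries as independent, and their p-values measure only the spread between these samples, which may be technical. The unit is RPM, the reads of a miRNA scaled to the total of reads on all miRNAs of the library. Library totals ran from 157871 to 7896424 reads with a median of 1364823.

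MicroRNAs are short RNAs that lower the output of the messenger RNAs they pair with. In mammals, miR-203 is known from the upper layers of skin, where it limits p63, a transcription factor of epithelial progenitors. miR-205 is known from the basal layer of stratified and glandular epithelia and, with the miR-200 family (miR-200a, miR-200b, miR-200c, miR-141 and miR-429), represses ZEB1 and ZEB2, which switch off epithelial genes. No tissue labelled as skin, oesophagus or another stratified epithelium was among the 16, so the name given to such miRNAs could not be checked against its own tissue. The row of cfa-miR-203 also carries the human and rat names of miR-203a-3p and miR-203b-5p, whose reads it does not separate. That of cfa-miR-205 carries those of miR-205. In the RefSeq annotation of another dog assembly, UU_Cfam_GSD_1.0, MIR203 lies within ASPG, between TDRD9 and KIF26A. MIR205 lies between the uncharacterised genes LOC119872658 and LOC119872493.

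In 11 libraries, the summed RPM of markers of the labelled tissue was below 25% of that in the highest library of the tissue. This limit was set after the values were seen. The libraries were thymus 2, 3 and 5, testis 2 and 3, duodenum 3, 4 and 5, ileum 4 and 5, and skeletal muscle 4. The thymocyte miRNAs miR-181a and miR-181b reached 8.58% to 10.8% of the highest library in the 3 thymus libraries. These miRNAs are not particular to thymus. Their sum had a median of 187221 RPM in brain and 105857 RPM in lung, against 56698 RPM in thymus. The testis miRNAs miR-34b, miR-34c and miR-202 reached 4.91% in testis 2 and 0.598% in testis 3. In duodenum 3, 4 and 5 the intestinal miRNAs miR-192, miR-194, miR-215 and miR-375 reached 6.28%, 1.19% and 18.2%. The contrasts between tissues below are given with and without them.

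Both miRNAs were read in most of the dog, at very unequal levels. cfa-miR-203 had at least 1 read in 73 of 76 libraries and 33629 reads in all. cfa-miR-205 was read in 52 libraries, was at 0 in 24, and had 20327 reads. Of those reads, 90.2% came from 4 libraries, testis 2 and 3 and thymus 1 and 4, the only libraries in which it exceeded 1000 RPM. cfa-miR-203 exceeded a tissue median of 100 RPM in 8 tissues and cfa-miR-205 in 1, the testis. Nearly all reads fell on 1 arm of each hairpin, as far as the merged row of cfa-miR-203 can show. hsa-miR-203a-5p, the opposite arm of miR-203, had 102 reads, or 0.302% of the reads on both arms (95% Wilson interval 0.249% to 0.367%). hsa-miR-205-3p had 6 reads, or 0.0295% (95% Wilson interval 0.0135% to 0.0644%).

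**Figure D1:**
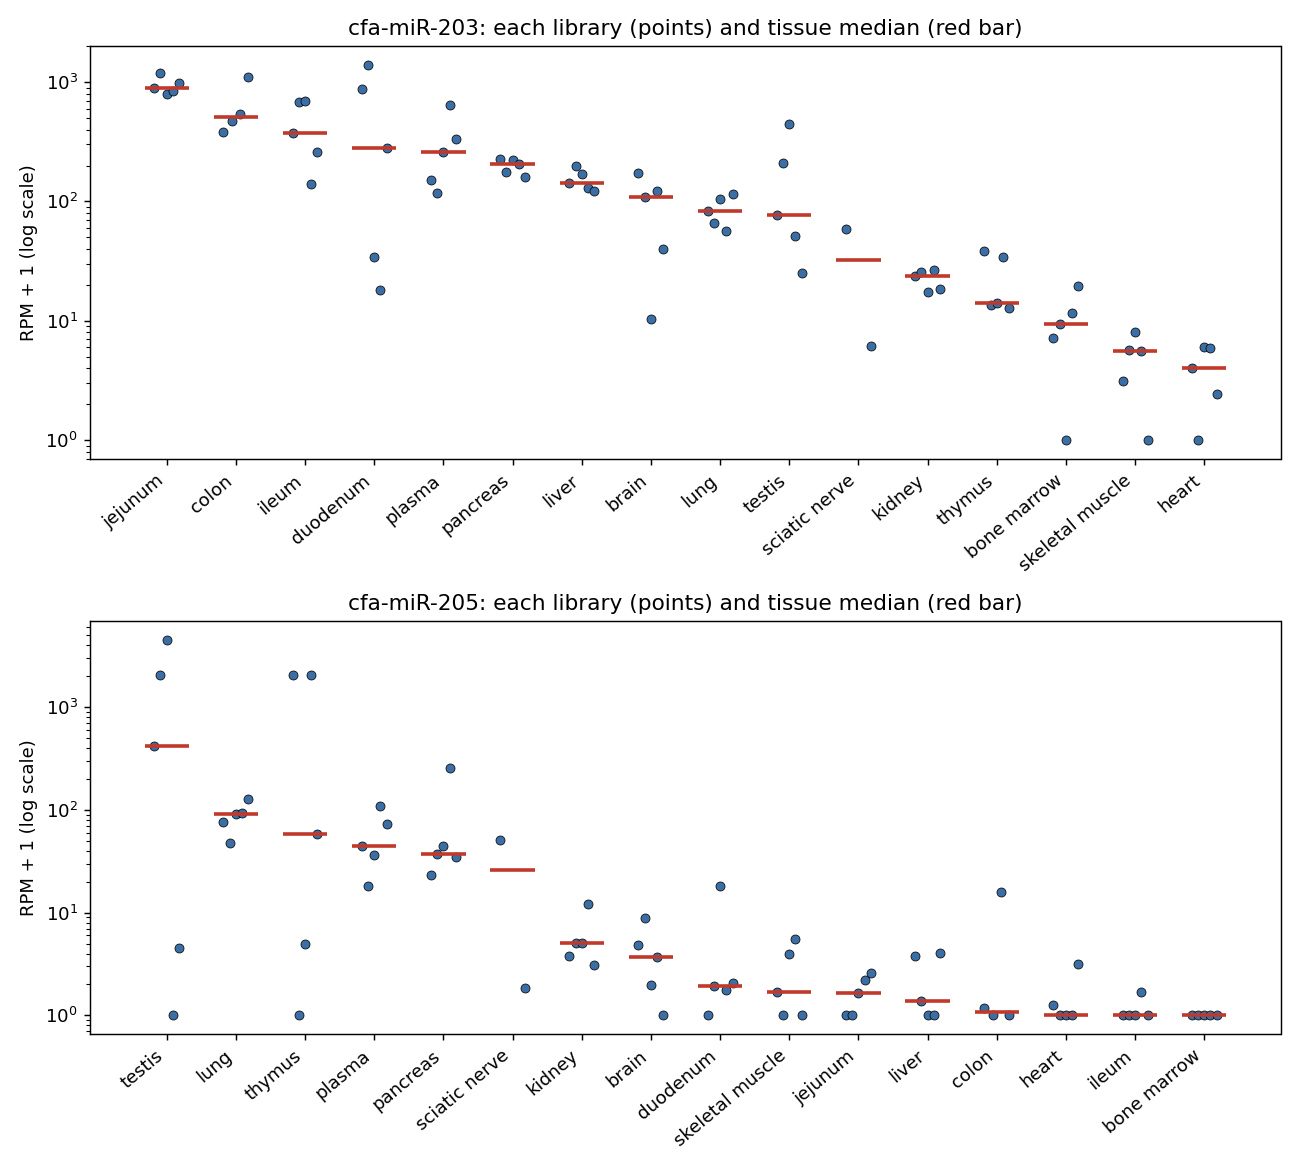
RPM plus 1 on a log axis for cfa-miR-203 (upper panel) and cfa-miR-205 (lower panel), with 1 point per library, tissues ordered by their median and the median as a red bar. The 5 jejunum libraries of cfa-miR-203 lie between 786.5 and 1184 RPM, whereas cfa-miR-205 runs from 0 to 4495 RPM within testis and from 0 to 2064 RPM within thymus.

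The highest levels of cfa-miR-203 were found in the intestine. In jejunum the 5 libraries had 889.996, 1184, 786.5, 846 and 978 RPM, a mean of 937 ± 154.9 (SD, n = 5), where it ranked between 43 and 62 among the miRNAs of each library. In colon the 4 libraries had 384, 467, 543 and 1101 RPM, a mean of 624 ± 325 (SD, n = 4). In ileum they had 374, 684, 695, 138 and 260.2 RPM, a mean of 430.2 ± 251 (SD, n = 5). Jejunum was the tissue with the narrowest of these ranges, and its values overlapped those of colon.

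Duodenum was split. Duodenum 1 and 2 had 876 and 1397 RPM of cfa-miR-203, the second of these being the highest library of the atlas, while duodenum 3, 4 and 5 had 33.2, 17.1 and 279.7 RPM. The 3 low libraries were also low in the intestinal markers. miR-192, the most abundant of these, had 267076 and 385247 RPM in duodenum 1 and 2 and 22363, 5188 and 77588 RPM in duodenum 3, 4 and 5. The miRNA of smooth muscle miR-143 went the other way, with 132689 and 84748 RPM against 604122, 408300 and 209375 RPM. The enteroendocrine miRNA miR-375 had 5272 and 2342 RPM in duodenum 1 and 2 and 9407, 239 and 6689 RPM in duodenum 3, 4 and 5, so that only duodenum 4 was below both of the first. The part of the cell mixture in the level of cfa-miR-203 was not tested. In bulk tissue, fewer epithelial cells and less miRNA per cell cannot be told apart.

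Tissue enrichment (TE) was taken as a mean over 5-fold above that of the remaining samples together, an adjusted p below 0.05 in a two-sided exact rank-sum test, and a tissue median above 100 RPM in at least 1 tissue. cfa-miR-203 was TE in jejunum alone, with a fold of 5.31 (adjusted p = 0.00100, exact rank-sum test with Benjamini-Hochberg adjustment). Among all miRNAs detected in jejunum, 1% were TE there. The fold stood close to its limit. It was 4.96 without jejunum 2 and 4.86 with all libraries thinned to the size of the smallest, and the call was lost in both. cfa-miR-205 was TE in no tissue. High tissue enrichment (HTE), a tissue median more than 5 times the highest sample of any other tissue or a matching criterion for 2 tissues, was reached by neither, compared with 9.08% of all miRNAs in 1 tissue and 0.769% in 2.

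Outside the intestine, cfa-miR-203 declined in a long series of tissues. Plasma had a median of 261 RPM (118 to 637), pancreas 207 RPM (160.0 to 226), liver 140.4 RPM (121 to 197) and brain 108 RPM (9.33 to 172). Lung had a median of 82.5 RPM, testis 75.4 RPM, sciatic nerve 31.4 RPM, kidney 22.9 RPM and thymus 13.1 RPM. The lowest medians were those of bone marrow at 8.37 RPM, skeletal muscle at 4.54 RPM and heart at 3.04 RPM. In these 3 tissues, 1 library each had no read. All libraries together held 9 reads in bone marrow, 18 in skeletal muscle and 37 in heart. A limit of 3 reads per library corresponds there to a mean of 15.4, 6.80 and 3.29 RPM, above each median. The levels are thus low, but how low is not resolved. By the exact rank-sum test against all other samples, cfa-miR-203 was lower in heart (adjusted p = 0.00140), skeletal muscle (adjusted p = 0.00457) and bone marrow (adjusted p = 0.0212). The share of all miRNAs lower there by this test was not counted. In the edgeR contrasts below, 83, 79 and 118 of the 480 miRNAs tested were lower in these tissues.

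Neighbours in this order could not be separated. Each tissue was compared with the next in mean log2(RPM + 1) by a two-sided exact permutation test, and 0 of 15 pairs passed after adjustment over the pairs. The smallest p that 5 against 5 samples allow is 0.00794, and 1 pair, pancreas above liver, was below 0.05 before adjustment (exact permutation p = 0.0397, adjusted p = 0.357). No pair had ranges that did not overlap, whereas 25.8% of the comparisons of all detected miRNAs over the same pairs had such ranges. The pairs were neighbours by the medians of cfa-miR-203 itself, which favours overlap. For the other miRNAs they were not chosen so, and the share is thus not a like standard. The position of a tissue next to its neighbour in this order was not resolved with these samples. The distance from jejunum to heart is 293-fold between medians, the heart median being near the limit of its reads.

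In an edgeR fit over all 16 tissues, cfa-miR-203 was higher than the mean of the other 15 tissues in 8 tissues and lower in 6 at an adjusted p below 0.05. Over all miRNAs and tissues, 24.6% of such tests were higher and 14.3% lower. The higher tissues were jejunum (log2 difference 3.88, SE 0.32, adjusted p = 1.65e-16, edgeR), colon (3.15, SE 0.37), duodenum (2.93, SE 0.35), plasma (2.82, SE 0.35), ileum (2.43, SE 0.36), pancreas (1.66, SE 0.39), liver (1.13, SE 0.41) and testis (1.07, SE 0.41). The testis call turned without the 11 low-marker libraries, when testis was lower than the other tissues (-1.35, SE 0.50, adjusted p = 0.0240, edgeR), and sciatic nerve was then lower too (-1.86, SE 0.59). Without the low-marker libraries of thymus alone, the lower tissues were 4, and thymus and brain were no longer among them. The lower tissues were heart (log2 difference -4.71, SE 0.72), skeletal muscle (-4.04, SE 0.74), bone marrow (-3.81, SE 0.74), thymus (-2.03, SE 0.57), kidney (-1.33, SE 0.52) and brain (-1.10, SE 0.51). These differences are relative to edgeR's scaling, under which the median of all miRNAs was -0.97 in bone marrow, -0.59 in plasma and between -0.38 and 0.32 in the other tissues.

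The 4 intestinal tissues were next compared with the mean of the other 12. The 19 intestinal libraries had a mean of 628 RPM of cfa-miR-203 (17.1 to 1397) and the 57 others a mean of 92.6 RPM (0 to 637). cfa-miR-203 was higher in the intestine by 3.87 on the log2 scale (SE 0.27, adjusted p = 3.67e-20, edgeR), against a median of 0.00 over all miRNAs, and 30.6% of the miRNAs tested were higher and 15.6% lower. Without the 11 low-marker libraries the difference was 4.44 (SE 0.21), and the counts of the lists that follow were then the same. Of the 478 miRNAs tested in that fit, 164 were higher and 90 lower. In the intestine that cut was made on the columnar miRNAs, and cfa-miR-203 was itself low in the duodenum libraries removed. Larger differences after it thus follow in part from the selection. With all libraries, 4 of 4 columnar epithelial miRNAs were higher in the intestine, among them miR-215 at 8.84 (SE 0.45) and miR-375 at 3.96 (SE 0.32). Of the miR-200 family 5 of 5 were higher, from 3.61 (SE 0.35) for miR-200b to 4.75 (SE 0.40) for miR-200c. Of the miRNAs known from keratinocytes and cornea, miR-31 was higher at 2.95 (SE 0.23) and miR-34a was lower at -0.53 (SE 0.17). The contrast of miR-184, which had no read in testis, gave no usable estimate (-1.19, SE 20.1).

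cfa-miR-205 was nearly absent from the same libraries. It had 0 reads in 9 of 19 intestinal libraries and more than 3 reads in 3, which were duodenum 3 with 24 reads (17.3 RPM), colon 3 with 14 reads (14.7 RPM) and jejunum 4 with 4 reads (1.21 RPM). Its mean was 2.06 RPM over the 19 libraries and 216.2 RPM over the other 57, the latter raised by a few libraries of testis and thymus. The medians were 0.171 and 3.82 RPM. Low levels were not particular to the intestine, as heart, liver, skeletal muscle and bone marrow also had medians below 1 RPM. As bone marrow had no read in any library, the edgeR contrast with a mean that contains it gave no usable estimate. An exact rank-sum test, chosen after this was seen, found cfa-miR-205 lower in the intestine (adjusted p = 0.00905, and 0.0132 without the low-marker libraries), with 7.69% of all miRNAs lower and 15.2% higher by the same test. The tissue group with the highest cfa-miR-203 thus held some of the lowest values of cfa-miR-205.

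Large and small intestine were not told apart by either miRNA. The log2 difference of colon from the mean of duodenum, jejunum and ileum was 0.07 for cfa-miR-203 (95% interval -0.99 to 1.14, adjusted p = 1.000, edgeR), where 2.92% of the miRNAs tested were higher and 1.25% lower. For cfa-miR-205 it was 1.61 (95% interval -1.06 to 4.29, adjusted p = 0.644, edgeR), and without colon 3 it was -2.46. Without the low-marker libraries, 5 of which were from small intestine, the differences were -0.46 (SE 0.40, adjusted p = 0.4998, edgeR) for cfa-miR-203 and 2.70 (SE 1.39, adjusted p = 0.187, edgeR) for cfa-miR-205. Among the epithelial lists, miR-215 was lower in colon at -3.84 (SE 0.87, adjusted p = 0.00279, edgeR), and the other 11 did not pass. Without the low-marker libraries 2 of these 12 were higher in colon and 3 lower, miR-141 (-2.22, SE 0.78) and miR-200a (0.96, SE 0.32) among them. Of all 478 miRNAs tested in that fit, 69 were higher in colon and 28 lower. The cut was made on the sum of miR-192, miR-194, miR-215 and miR-375, and it removed no colon library. Lower values of these miRNAs in colon after the cut thus follow in part from the selection.

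The levels of cfa-miR-205 turned on a few libraries of testis and thymus. In testis 1 to 5 it had 415, 2028, 4495, 0 and 3.48 RPM, a mean of 1388 ± 1927 (SD, n = 5). In testis 3, where 9112 reads were counted (95% Wilson interval 4404 to 4588 RPM), it ranked 19 among 444 miRNAs. The values of testis 4 and 5 rest on 0 and 1 read, and a count of 0 in testis 4 allows up to 13.7 RPM. The mean was 18.2 times that of all other samples, but the libraries spanned nearly the whole range of the atlas and the test was not passed (adjusted p = 0.174, exact rank-sum test). Of all miRNAs detected in testis, 3.98% were TE.

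Testis libraries rich in cfa-miR-205 were poor in testis miRNAs. miR-202, an miRNA of the gonads, had 3340 RPM in testis 1, 241 in testis 2, 0.493 in testis 3, 4905 in testis 4 and 5345 in testis 5. miR-34c, known from meiotic germ cells, had 49237, 4631, 582, 93353 and 80187 RPM in the same order. The epithelial miR-141 ran the other way, at 950.1, 3895, 6493, 31.9 and 45.3 RPM, as did miR-200c at 128.2, 707, 1338, 0 and 6.96 RPM. cfa-miR-203 followed, at 75.4, 208, 448, 50.1 and 24.4 RPM. The smooth muscle miRNA miR-143 was highest in testis 2 and 3, at 283034 and 236239 RPM, and between 74404 and 90496 RPM in the others. miR-145 was likewise highest there, at 4839 and 3180 RPM against 864 to 1086 RPM. The other members of that marker list, miR-199 and miR-214, were not, and were lowest in testis 3, at 2970 and 61.7 RPM. What tissue testis 2 and 3 contained was not tested. Without the 11 low-marker libraries the mean of cfa-miR-205 in testis was 139 RPM (n = 3), 1.62 times that of the other samples (adjusted p = 0.810, exact rank-sum test).

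**Figure D2:**
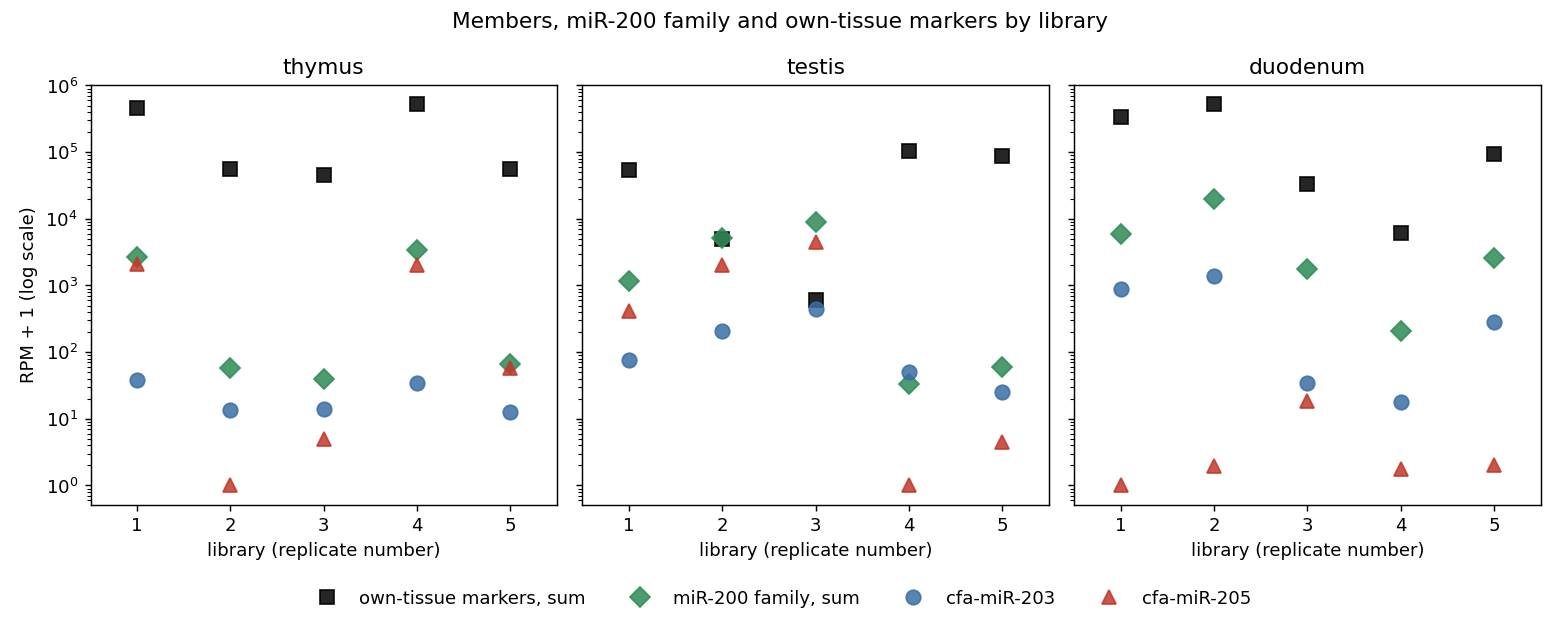
RPM plus 1 on a log axis for each library of thymus, testis and duodenum, with the sum of the markers of the labelled tissue (squares), the sum of the miR-200 family (diamonds), cfa-miR-203 (circles) and cfa-miR-205 (triangles). In thymus cfa-miR-205 is highest in libraries 1 and 4, which have the highest marker sums, whereas in testis it is highest in libraries 2 and 3, which have the lowest.

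In thymus the relation to the markers was the opposite. cfa-miR-205 had 2064 RPM in thymus 1, 0 in thymus 2, 3.99 in thymus 3, 2049 in thymus 4 and 57.2 in thymus 5, a mean of 835 ± 1116 (SD, n = 5). Thymus 1 and 4 had 426312 and 500018 RPM of miR-181a, abundant in developing T cells, and the other 3 between 41991 and 53348 RPM. miR-142, an miRNA of blood cells, was at 14022 and 8991 RPM in thymus 1 and 4 and between 234 and 335 RPM in the others. The epithelial miR-141 had 2321 and 3055 RPM in thymus 1 and 4 and 38.0, 16.5 and 21.7 RPM in thymus 2, 3 and 5. cfa-miR-203 was low throughout, at 37.5 and 33.1 RPM in thymus 1 and 4 and between 11.8 and 13.1 RPM in the others. The 2 libraries with the highest cfa-miR-205 were thus the 2 with the highest thymocyte miRNAs.

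Thymus 2 had only 157871 reads, and its count of 0 allows up to 19.0 RPM. Over all 5 libraries the mean of cfa-miR-205 was 7.24 times that of all other samples and did not pass (adjusted p = 0.501, exact rank-sum test), and 0% of the miRNAs detected in thymus were TE. Leaving out the 11 low-marker libraries removed testis 2 and 3, the only other libraries above 1000 RPM, and the 3 lowest thymus libraries. Thymus 1 and 4 were then the highest of the 65 libraries by construction, with a mean of 2057 RPM, 79.0 times that of the others, so that the TE call made there, shared by 1.67% of the miRNAs detected in thymus, is a description and not a test.

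Thymus contains an epithelial scaffold with keratinised corpuscles, which bone marrow lacks. In bone marrow cfa-miR-205 had 0 reads in all 5 libraries, whose totals of 162310 to 239023 reads allow a mean of up to 15.4 RPM. The thymus mean was at least 54.3-fold higher than this limit of 3 reads per library, a bound that was not tested. The edgeR test compared thymus with the counts of 0 themselves (adjusted p = 1.14e-05, edgeR). By the same test, 27.5% of the miRNAs tested were higher and 10.2% lower in thymus. The exact rank-sum test, added after the data were seen, did not pass (adjusted p = 0.148), with 13.3% of all miRNAs higher and 7.69% lower by it. Thymus 2 also had no read. The bound rested on thymus 1 and 4. It was 34.3-fold without thymus 1, 34.5-fold without thymus 4 and 134-fold with both alone, and the thymus median was 3.72 times the limit. For cfa-miR-203 the difference was 1.67 (SE 0.84, adjusted p = 0.117, edgeR), against a median of 0.78 over all miRNAs, and it became 2.09 (SE 0.72, adjusted p = 0.0192, edgeR) without the low-marker libraries. In the fit without them, 105 of the 478 miRNAs tested were higher in thymus and 53 lower. Of the miR-200 family 4 of 5 were higher in thymus by edgeR, with and without the low-marker libraries, but this too rested on thymus 1 and 4. The family summed to 2632 and 3419 RPM there and to 57.01, 38.8 and 65.1 RPM in thymus 2, 3 and 5, below all 5 bone marrow libraries (138 to 314 RPM).

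Between thymus and testis, the tissues with the highest means of cfa-miR-205, the outcome turned on the libraries used. With all 5 against 5, cfa-miR-205 differed by -1.02 on the log2 scale, thymus minus testis (SE 1.05, adjusted p = 0.491, edgeR). Without testis 2 and 3 it was 3.14 higher in thymus (SE 1.27, adjusted p = 0.0498, edgeR), and without all low-marker libraries 4.05 higher (SE 1.13, adjusted p = 0.00395, edgeR). These cuts removed the highest testis libraries and, in the latter, the lowest thymus libraries. cfa-miR-203 was lower in thymus by -2.91 (SE 0.68, adjusted p = 4.18e-04, edgeR), with 22.3% of the miRNAs tested lower and 17.3% higher. Without testis 2 and 3 this was -0.48 (SE 0.71, adjusted p = 0.671, edgeR). Of the miR-200 family 4 of 5 were lower in thymus with all libraries, and the median of the family was -2.66 against -0.05 for all miRNAs. The family summed to 5153 and 8900.4 RPM in testis 2 and 3, 1172 RPM in testis 1, and 31.9 and 59.2 RPM in testis 4 and 5. Without the 11 low-marker libraries 0 of 5 were lower and 2 of 5 were higher in thymus, and the median was 2.52. Of all 478 miRNAs tested in that fit, 96 were lower in thymus and 65 higher.

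By mean, cfa-miR-205 was lower in all other tissues than in testis and thymus, while by median lung (90.0 RPM) lay above thymus (57.2 RPM). Lung had 75.6, 46.9, 90.0, 92.0 and 127 RPM, a mean of 86.3 ± 28.9 (SD, n = 5), with 63 to 224 reads per library. The ranks of lung were high (adjusted p = 0.0133, exact rank-sum test), although the mean was 0.513 times that of all other samples, a mean that testis and thymus raised. Plasma had 43.7, 17.0, 35.3, 109 and 71.9 RPM (adjusted p = 0.0288, exact rank-sum test, fold 0.326). The share of all miRNAs with high ranks in these 2 tissues was not counted. In the edgeR contrasts of single tissues, 99 of 480 miRNAs were higher in lung and 134 in plasma. With medians in place of means, both lung and plasma met TE, as did 1.69% of the miRNAs detected in lung and 6.77% of those in plasma. With means these shares were 0.636% and 3.84%. Pancreas had 22.4, 36.5, 43.7, 257 and 34.1 RPM, so that its mean of 78.7 ± 99.8 (SD, n = 5) was set by pancreas 4. Pancreas 4 was also the highest pancreas library in miR-143, at 38971 RPM against 14644 to 17134 RPM in the others. It was the highest as well in the summed acinar miRNAs miR-216a, miR-216b and miR-217, at 17110 RPM against 11952 to 13669 RPM. Lung spanned 2.70-fold between its libraries, plasma 6.43-fold and pancreas 11.5-fold.

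Below these, sciatic nerve had 49.4 and 0.859 RPM of cfa-miR-205, a difference of 57.5-fold between its samples. cfa-miR-203 differed there in the same direction, with 57.7 and 5.15 RPM, and so did miR-375, with 1303 and 35.2 RPM, and the muscle miRNA miR-133a, with 1917 and 105 RPM. Kidney had a median of 4.04 RPM and brain of 2.71 RPM. In the remaining 8 tissues the median was below 1 RPM, and in heart, ileum and bone marrow no library had more than 3 reads. As for cfa-miR-203, 0 of 15 neighbour pairs differed after adjustment in the exact permutation test, and no ranges failed to overlap. Over these pairs, ranges did not overlap in 32.3% of the comparisons of all detected miRNAs. The pairs were again neighbours by the member's own medians, which favours overlap, so this share is not a like standard.

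The ratio of both miRNAs compares values of the same library. cfa-miR-205 was above cfa-miR-203 in 10 of 76 libraries, which were 3 of testis, 3 of thymus, 2 of lung, 1 of heart and 1 of pancreas. The median log2 ratio of cfa-miR-205 to cfa-miR-203, with 1 RPM added to each, was 2.44 in testis (-5.68 to 3.32), 2.18 in thymus (-3.77 to 5.91) and -0.13 in lung (-0.47 to 0.72). In jejunum it was -8.89 (-10.21 to -8.55) and in colon -8.62 (-10.11 to -5.11). In lung, but not in testis or thymus, the ratio thus stayed within 1 log2 unit of equal levels in every library.

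**Figure D3:**
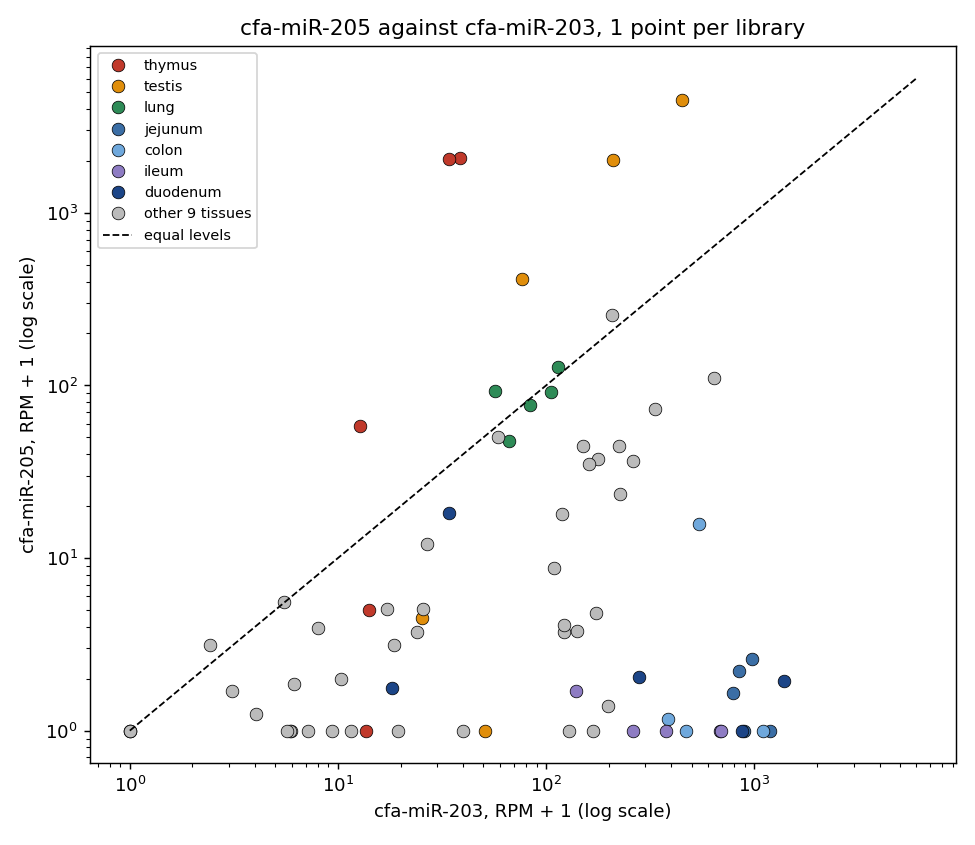
cfa-miR-205 (vertical) against cfa-miR-203 (horizontal), both as RPM plus 1 on log axes, with 1 point per library coloured by tissue and a dashed line of equal levels. The 10 libraries above the line include 3 of thymus and 3 of testis, and the intestinal libraries lie far below it.

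Over the 16 tissue medians, the Spearman correlation between cfa-miR-203 and cfa-miR-205 was -0.068, a description over 16 points that share libraries. Among 430 miRNAs with a tissue median of at least 10 RPM, those most like cfa-miR-203 were cfa-miR-192 (0.856), cfa-miR-215 (0.812), cfa-miR-147 (0.798), hsa-miR-7-1-3p (0.797) and cfa-miR-375 (0.785). The miR-200 family ranked from 9 for miR-429 to 22 for miR-200c, and cfa-miR-205 ranked 266. Those most like cfa-miR-205 were hsa-miR-744-5p (0.693), cfa-miR-506 (0.685), cfa-miR-92b (0.681), cfa-miR-202 (0.672) and cfa-miR-449a (0.621). Among them, cfa-miR-506, cfa-miR-202 and cfa-miR-449a had their highest median in testis. Within testis, however, the libraries rich in cfa-miR-205 were poor in cfa-miR-202. The median of cfa-miR-205 was below 1 RPM in 8 tissues and at 0 in heart, ileum and bone marrow. Many of its ranks thus rest on few or no reads. The miR-200 family, which shares targets with miR-205, ran from 0.062 for miR-200a to 0.249 for miR-200b.

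**Figure D4:**
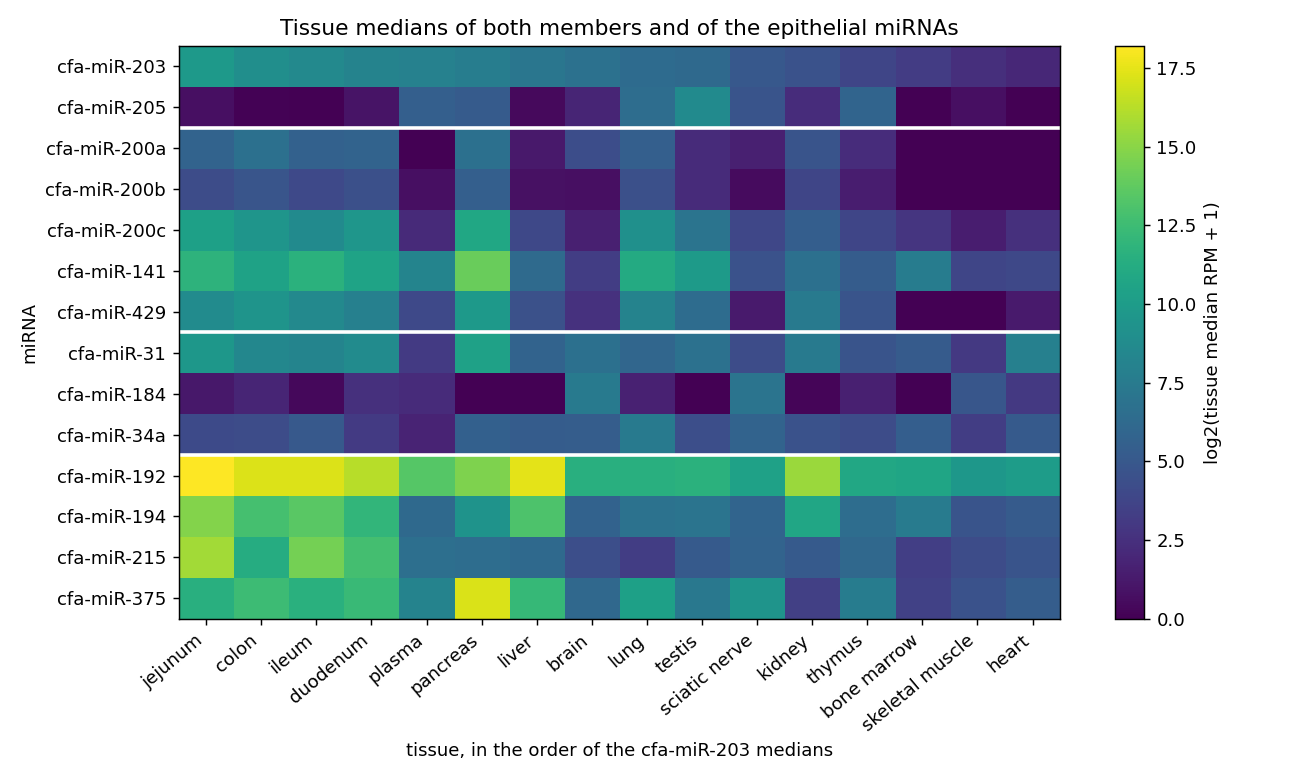
Tissue medians as log2(RPM + 1) for cfa-miR-203, cfa-miR-205, the miR-200 family, 3 miRNAs known from keratinocytes and cornea, and 4 intestinal miRNAs, with tissues in the order of the cfa-miR-203 medians. cfa-miR-205 has its highest medians in testis (415 RPM), lung (90.0 RPM) and thymus (57.2 RPM), away from the intestinal tissues where the medians of cfa-miR-203 are highest.

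Among the other epithelial miRNAs, the TE calls fell mostly elsewhere. miR-192 (fold 6.05), miR-194 (9.01) and miR-215 (15.8) were TE in jejunum, like cfa-miR-203. In pancreas 3.56% of the detected miRNAs were TE, and in brain 14%. miR-141 (10.4), miR-200c (5.07), miR-31 (6.14) and miR-375 (83.2) were TE in pancreas, where cfa-miR-203 had 0.869 times the mean of all other samples. Of the keratinocyte and corneal miRNAs, miR-184 was TE in brain (19.4) and miR-34a in lung (6.76). None of the 12 was TE in thymus or testis, where 0% and 3.98% of the detected miRNAs were.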

How the data were processed

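Small RNA was sequenced by miR-seq in 77 labelled samples, of which 76 had values that could be assigned to a label. A colon sample without values and 1 pooled sample name that matched no label were not used. Per the paper's methods, the authors clipped adaptors, used OSA v4 to place reads on the dog genome CanFam3.1, allowing no mismatch, and counted reads on miRNA loci of dog, rat and human annotation with bedtools. The deposited counts are raw reads per miRNA and sample, unlisted miRNAs being taken as 0, and the deposited RPM are those counts scaled by the authors to the total of reads on miRNAs. RPM recomputed from the counts differed by at most 2.89e-09 in relative terms. A deposited maximum per miRNA was not used.

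The members and lists were chosen with earlier results of these data known. miRNAs were named if they were members, members of the epithelial or cell type marker lists, or the 5 most correlated with a member. Contrasts used edgeR 4.0.16 (TMM, filterByExpr, quasi-likelihood test, 1 fit over 16 tissues) with Benjamini-Hochberg adjustment, and DESeq2 1.42.0 as an alternative, in R 4.3.3. The exact rank-sum tests of enrichment and the permutation tests were enumerated directly under Python 3.11.15, and Wilson intervals used scipy 1.17.1. Tables were handled in pandas 2.3.3 and numpy 2.4.6, and plots were drawn in matplotlib 3.10.9. Intervals of shares are 95% Wilson intervals, and a count of 0 allows 3 reads. Both cover counting error only. Tests were checked on simulated data. The rank-sum and edgeR tests recovered changes in both directions and a small set raised in 1 direction, but when about every other miRNA tested was raised in the same tissue, edgeR with TMM shifted all differences downward and called most unchanged miRNAs. Medians over all miRNAs are therefore given beside the edgeR differences.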

Additional observations from a re-analysis of the deposited data

Results flagged for a closer look

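Within tissues, 44 groups of 4 or 5 samples were examined for a single library far from the others, and 6 met Dixon's 95% limit. Its rate of about 1 in 20 by chance holds for normally distributed values, which skewed counts near 0 are not. A group with reads in only 1 library always meets the limit. The number flagged is therefore a description and cannot be set against chance. All 6 were high values of cfa-miR-205. They were pancreas 4 at 257 RPM (next 43.7), duodenum 3 at 17.3 RPM (next 1.05), colon 3 at 14.7 RPM (next 0.171), kidney 4 at 11.1 RPM (next 4.07), heart 5 at 2.15 RPM (next 0.253) and ileum 4 at 0.686 RPM, where the other 4 libraries had no read. The values of heart 5 and ileum 4 rest on no more than 3 reads. The high values of testis and thymus were not singled out, since several libraries of each were high.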

How the results depend on the processing

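No paired analysis was possible because the labels give no dog or replicate number. The alternatives without low-marker libraries and the rank-sum tests of contrasts were chosen after seeing the data. TE tissues of cfa-miR-203 were 0 after thinning and 0 to 1 with a sample left out. Those of cfa-miR-205 were 2 with medians (lung and plasma), 1 without low-marker libraries (thymus), and 0 to 1 with a sample left out, testis being called without testis 4 (fold 22.7). For cfa-miR-205, thymus against bone marrow gave an adjusted p = 0.148 by exact rank sums, and between 4.00e-06 and 1.02e-04 with a sample left out (edgeR). Thymus minus testis was 0.25 without low-marker thymus libraries, 3.14 without those of testis, 4.05 without all, and -1.82 to 0.97 with a sample left out, the highest being without testis 3. For cfa-miR-203 it was -0.48 and -0.20 without the low-marker libraries of testis and of all tissues, -3.12 to -1.35 with a sample left out, the call being lost without testis 3 (adjusted p = 0.105, edgeR), and exact rank sums gave an adjusted p = 0.189. By that test 0 miRNAs passed between thymus and testis, where 117 had an unadjusted p below 0.05 and edgeR called 190. For cfa-miR-203, thymus minus bone marrow was 2.09 without low-marker libraries and 1.06 to 1.83 with a sample left out. Colon minus small intestine was -0.10 to 0.46 for cfa-miR-203 and -2.46 to 2.55 for cfa-miR-205 with a sample left out. The intestinal difference of cfa-miR-203 ran from 3.72 to 4.06 with a sample left out. DESeq2 gave -3.63 for cfa-miR-205 in the intestine. Fits limited to thymus and bone marrow (both miRNAs) or to the intestine (cfa-miR-205) gave no value, as the filter on low counts removed them. Single-tissue edgeR contrasts of cfa-miR-205 gave no usable estimate. Depth limits cfa-miR-205 in bone marrow and in thymus 2, and cfa-miR-203 in bone marrow and skeletal muscle.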
